A study of Rattus norvegicus with 30 samples.

Results

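The nuclear receptors and coactivators that set the expression of genes for fuel use in the heart were followed here as 10 genes, chosen by name: Ppara, Ppard, Pparg, Rxra, Esrra, Esrrb, Esrrg, Ppargc1a, Ppargc1b and Tfam. They are 10 of the 24752 gene or probe names in the deposited tables. Every row of those names was taken, which gave 12 rows in each of the 3 tables, 1 table for each age, because Ppargc1b and Tfam have 2 rows each. The hearts were those of untreated Fischer rats, inbred strain F344, aged 8, 21 or 78 weeks, and each age was represented by 5 animals per sex. All animals came from the breeding colony of the National Center for Toxicological Research and received the same NIH-31 diet and water without restriction. Each whole heart was ground to powder on its own and its RNA, labelled with Cy3, was measured on 1 Agilent whole rat genome array, so a value is 1 rat and the sample is the mixed tissue of the entire organ.

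PPAR alpha, delta and gamma (Ppara, Ppard, Pparg) are nuclear receptors that bind fatty acids and their derivatives and, as dimers with a retinoid X receptor such as RXR alpha (Rxra), switch on genes of lipid uptake, storage and oxidation. PPAR alpha is the classical regulator of fatty acid oxidation in cardiac muscle, PPAR delta shares many of its targets, and PPAR gamma is best known as the master regulator of fat cells. The estrogen-related receptors (Esrra, Esrrb, Esrrg) are orphan receptors, without a known natural hormone, that act on genes of the citric acid cycle and the respiratory chain. PGC-1 alpha and PGC-1 beta (Ppargc1a, Ppargc1b) bind no DNA themselves and are coactivators of both receptor families. TFAM (Tfam), encoded by a nuclear gene and imported into mitochondria, packages mitochondrial DNA and starts its transcription.

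Each gene was read by 60-base probes, and 3 of them are shown because the values of these genes rest on the part of the messenger that the probe matches. The sequences are those of the arrays, at the rat rn3 positions given in the scanner files, and capitals mark the complete codons of the only reading frame without a stop. The Ppargc1a probe lay on the plus strand at chr14:64368058-64368117 and its 20 codons belong to the RNA recognition motif near the end of the coactivator. The Pparg probe lay on the plus strand at chr4:151845021-151845080 and its 19 codons fall in the ligand-binding domain. The Esrrb probe lay on the plus strand at chr6:110626949-110627008, with 20 codons also in the ligand-binding domain.
Ppargc1a: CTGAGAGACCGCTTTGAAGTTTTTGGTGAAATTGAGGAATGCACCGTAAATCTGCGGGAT
Pparg: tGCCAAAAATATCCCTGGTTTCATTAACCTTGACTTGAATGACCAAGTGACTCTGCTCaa
Esrrb: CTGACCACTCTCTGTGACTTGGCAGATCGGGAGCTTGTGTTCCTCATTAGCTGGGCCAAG

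The genes that code for these regulators are themselves controlled, and the promoters of 4 of them are shown because each held a motif of a factor known in mitochondrial biology. The search covered the 250 bases before each annotated start in RefSeq's GRCr8 assembly, on both strands, for 9 of the 10 genes and 13 start sites. TGACGTCA, the full cyclic AMP response element, stood in a Ppargc1a window, 181 bases before the start (chr14:63634107-63634154, plus strand, for the stretch printed). It was present in 1.587% of all 33469 windows. ACCGGAAG, a site for ETS factors such as NRF-2, stood 57 bases before the Tfam start (chr20:17355296-17355343, plus strand) and was in 2.02% of windows. GCATGCGC, the core of the NRF-1 site, stood 115 bases before the Esrra start (chr1:213543393-213543440, minus strand) and 98 bases before the Ppara start (chr7:118712489-118712536, plus strand). It was in 2.199% of windows. TCAAGGTCA, the estrogen-related receptor element, was in none of the 13 windows and in 0.3884% of all windows. None of the 4 motifs contains another. A match is a run of letters and no measure of binding. The stretches are printed on the strand of the gene with the motif in capitals.
Ppargc1a: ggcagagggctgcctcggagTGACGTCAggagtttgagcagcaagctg
Tfam: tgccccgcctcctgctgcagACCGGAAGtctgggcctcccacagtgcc
Esrra: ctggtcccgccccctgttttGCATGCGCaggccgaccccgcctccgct
Ppara: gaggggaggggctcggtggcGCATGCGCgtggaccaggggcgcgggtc

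Several facts about the arrays bear on every value. The array's 75th percentile of signal, by which each array was scaled, lay between 82.7 and 171 units in 5 of the 6 groups and between 39.9 and 105 units in 21-week males, where replicate 2 was the weakest array. The 30 arrays lay on 8 slides with both sexes on each, females always at positions 2 and 4 and males at 1 and 3, so position and sex cannot be told apart. The study kept each age in a batch of its own, and only 1 slide held arrays of 2 ages (8 and 78 weeks), so age and batch cannot be told apart either. The Y-linked genes Ddx3y and Eif2s3y went against the label on 2 arrays of 78 weeks, the library labelled Female replicate 2 and the library labelled Male replicate 3, and the members' differences at that age are given with and without both. Values for females alone or males alone went by the labels, so each such value that involves 78 weeks includes 1 of these libraries. Heart muscle was checked with 9 cardiomyocyte markers. Of the probes used to compare all 30 arrays, those of 8 markers passed the scanner's background flag on each array. The phospholamban (Pln) probe used there passed on none. In the rows used for the sex tests all 9 markers passed on every array of each age.

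Of the 10 genes, 8 could be followed and Esrrb and Esrrg could not. Esrra, Ppard, Pparg, Ppargc1a and the leading rows of Ppargc1b and Tfam passed that flag everywhere, Ppara on 29 arrays and Rxra on 28. Esrrb was well above background on 1 array, a 21-week male, and Esrrg on 8 arrays, 7 of them at 8 weeks. The second row of Ppargc1b passed on 14 arrays and that of Tfam on 5. The second Tfam probe maps to the minus strand of rn3 and the leading one to the plus strand, so it may not read the same messenger. Probes for Ppara and Pparg are printed at 10 spots on each array, and the spots of 1 array differed by a median SD of 0.23 (Ppara) and 0.19 (Pparg) on the log2 scale. Each value used is a mean over the spots, which varies less than a single spot does. The SD of these values between rats of 1 group had a median of 0.20 for Ppara and of 0.44 for Pparg. It is therefore not directly comparable with the SD of single spots.

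**Figure D1:**
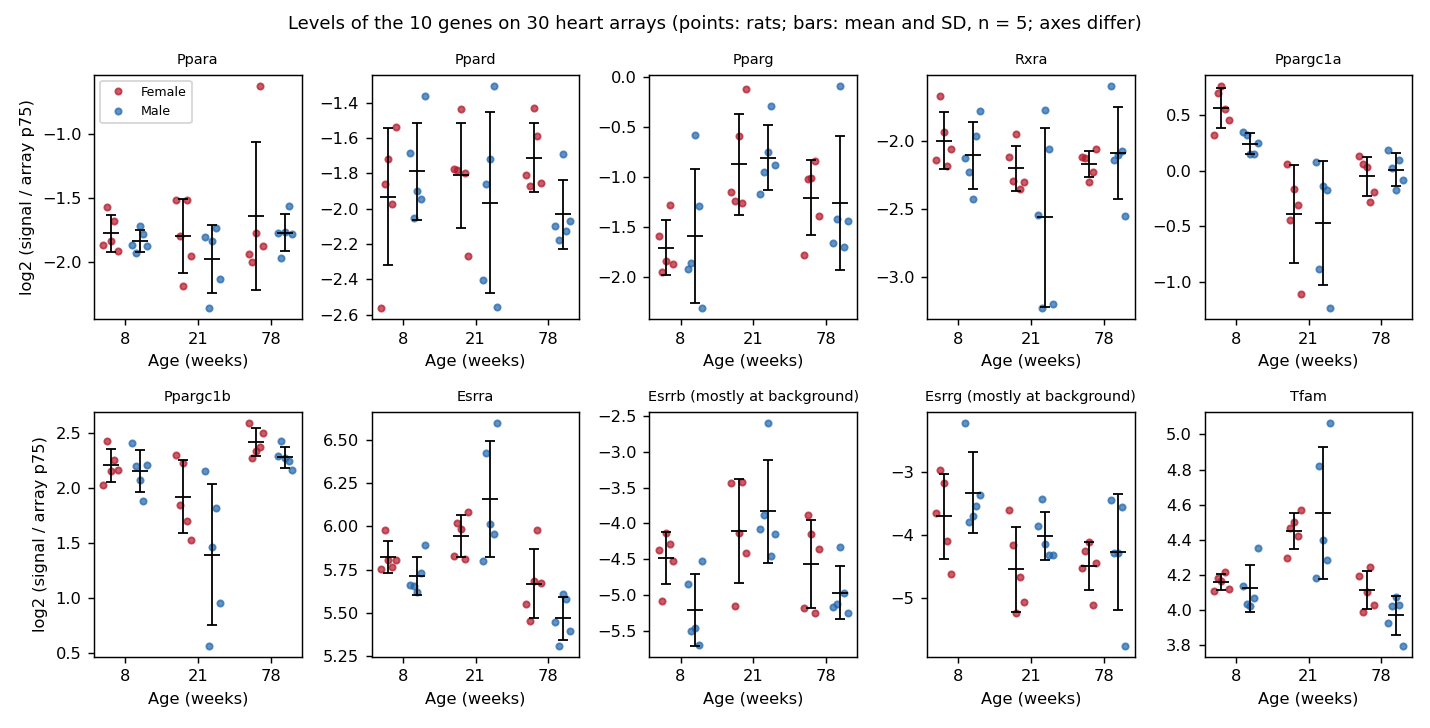
Level of each of the 10 genes on the 30 arrays, as log2 of the signal over the array's 75th percentile, by age in weeks. Points are rats (red females, blue males), bars give the mean and SD of 5 rats, and each panel has its own axis. Ppargc1a is highest at 8 weeks, where no rat is under 0.15, and all 21-week rats are at 0.07 or lower.

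The study asked whether the sexes differ at each age, and for these genes no sex difference passed the test at any age. With limma on the log2 table values and Benjamini-Hochberg adjustment over all rows, none of the 12 rows had an adjusted p under 0.05 at 8, 21 or 78 weeks. Against this stand 0.102% of all rows called at 8 weeks (0.0328% with the female mean above and 0.0693% with the male mean above), 0.0511% at 21 weeks (0.0219% and 0.0292%) and 0% at 78 weeks. At an unadjusted p under 0.05 the rows of 2 genes passed at 8 weeks, none at 21 weeks and 1 at 78 weeks, where 5.74%, 15.9% and 5.65% of all rows did. The groups of females and males overlapped in each of the 12 rows at each age, while 1.41%, 4.05% and 0.9% of all rows did not overlap. In simulated tables with the spread of the real ones, the test recovered 55% of 2-fold changes at 8 weeks, 31% at 21 weeks and 39% at 78 weeks, and 33%, 5% and 20% of 1.5-fold changes. Every label was right in the simulation. The shares for 78 weeks, where 2 libraries went against their labels, therefore hold only for correct labels.

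Ppargc1a showed the clearest lean at 8 weeks. In the 8-week table, in multiples of the array's 75th percentile, its level in females was 0.709, 0.786, 0.839, 0.926 and 0.971. In males it was 0.635, 0.636, 0.676, 0.713 and 0.747. Of the females, 4 lay above the highest male and the lowest lay among the males. The mean was 1.24-fold higher in females, a log2 difference of 0.31 ± 0.098 (SE, n = 5 per sex), with an unadjusted exact permutation p of 0.0238 and a limma adjusted p of 0.707. The difference had the same sign on each of the 3 slides (0.15, 0.50 and 0.22) and between 0.25 and 0.37 with any 1 array left out. At 21 weeks the difference was 0.06 (95% interval -0.63 to 0.76) and at 78 weeks -0.08 (-0.34 to 0.19, without both libraries -0.16). The change of this difference from 8 to 78 weeks was itself tested on the scale of all 30 arrays and was -0.38 ± 0.29 (limma adjusted p = 1.00). No gene of the 10 passed such a test of sex by age, where 0.00244% of all probes were called for 21 against 8 weeks, 0% for 78 against 8 weeks (2.34% at an unadjusted p under 0.05) and 0.00244% for 78 against 21 weeks. The second coactivator, Ppargc1b, differed by 0.04 (-0.22 to 0.30) at 8 weeks and by 0.12 (-0.10 to 0.34, without both libraries 0.15) at 78 weeks. At 21 weeks its level was 1.61, 1.85, 2.02, 2.61 and 2.73 in females and 0.838, 1.06, 1.58, 2.04 and 2.54 in males. The sexes overlapped, with 2 females above all males. The females' mean was 1.43-fold higher (log2 difference 0.51 ± 0.30, exact permutation p = 0.167, limma adjusted p = 0.379).

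Among the PPARs, Ppard differed most, at 78 weeks. Its level was 0.147, 0.149, 0.151, 0.174 and 0.199 in females and 0.120, 0.121, 0.126, 0.130 and 0.167 in males, and the highest male was the library labelled Male replicate 3. The log2 difference was 0.31 ± 0.13, or 1.24-fold higher in females (exact permutation p = 0.0317, limma adjusted p = 0.856). Without the 2 libraries whose Y-linked genes went against their labels it was 0.43 (limma adjusted p = 0.448). At 8 weeks it leaned the other way, at -0.15 (95% interval -0.62 to 0.31), and the change of the difference between those ages was 0.46 ± 0.30 (limma adjusted p = 1.00). Ppara, the main receptor of fat oxidation, differed by 0.02 at 8 weeks (-0.19 to 0.23), 0.17 at 21 weeks (-0.26 to 0.59) and 0.10 at 78 weeks (-0.46 to 0.66, without both libraries 0.19). The last interval is wide because the 78-week females held 0.132, 0.134, 0.147, 0.157 and 0.339. Pparg differed by -0.10, -0.06 and 0.06 at the 3 ages, with intervals that reached from -0.79 to 0.79. At 78 weeks it was 0.30 without the 2 libraries that went against their labels (limma adjusted p = 0.737) and 0.35 without the library labelled Male replicate 3 alone. Its dimer partner Rxra differed by 0.10 at 8 weeks, 0.34 at 21 weeks and -0.09 at 78 weeks (-0.11 without both libraries). At 21 weeks 2 of the 5 males were not well above background for Rxra, and the 2 lowest male levels, 0.0597 and 0.0605, were under the lowest female, 0.112.

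Esrra, the only estrogen-related receptor of the 3 whose probe passed the background flag on every array, had levels of 30.7 to 35.9 in 8-week females and 28.2 to 33.8 in 8-week males. The difference was 0.10 (95% interval -0.07 to 0.27) at 8 weeks, -0.23 (-0.61 to 0.14) at 21 weeks and 0.19 (-0.07 to 0.44, without both libraries 0.27) at 78 weeks. The swing from 21 to 78 weeks, 0.41 ± 0.18, had an unadjusted limma p of 0.0302 and an adjusted p of 0.369. In that contrast 12.4% of all probes had an unadjusted limma p under 0.05. At 21 weeks 2 males, at 48.7 and 53.1, lay above the highest female at 37.9, and the other 3 males lay among the females. With normexp background correction the differences at 21 and 78 weeks changed sign, to 0.20 and -0.18. That correction added an offset of 50 units before scaling, while the 75th percentile of 21-week male arrays was 39.9 to 105 units. The part of this offset in the normexp values here and below was not tested. Tfam differed by 0.03, -0.11 and 0.13, each with an interval that held 0, and by 0.18 at 78 weeks without both libraries. The Esrrb difference at 8 weeks, 0.72, went with an unadjusted limma p of 0.0204 (exact permutation p = 0.0476, limma adjusted p = 0.769), but no array of that age was well above background for it.

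**Figure D2:**
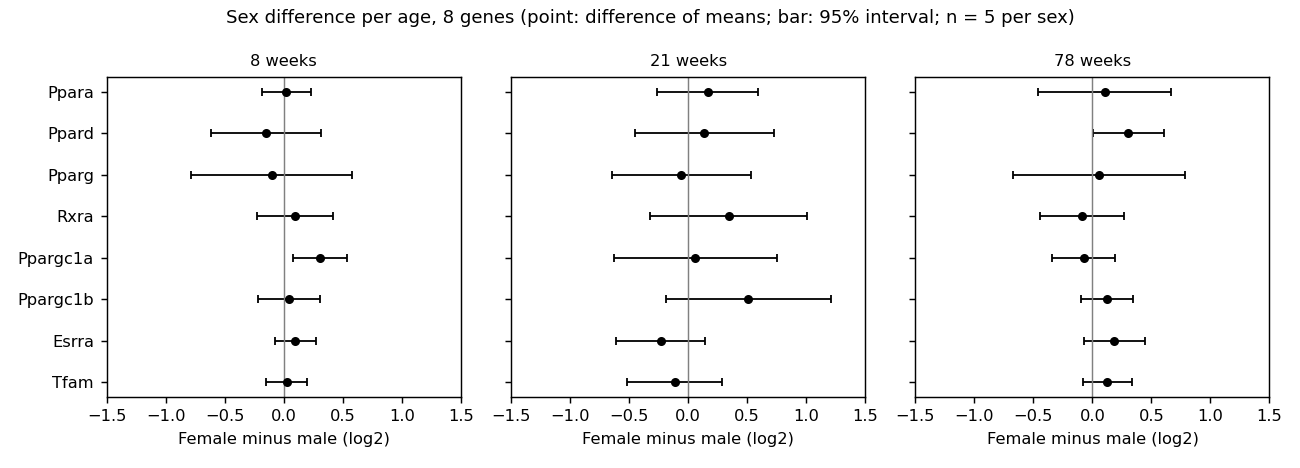
Sex difference of the 8 genes that could be followed, as female minus male on the log2 scale, at 8, 21 and 78 weeks. Points are differences of means of 5 rats per sex. Bars are 95% intervals, from the limma SE and the t value for 8 residual degrees of freedom, a little wider than limma's own. Only the bars of Ppargc1a at 8 weeks (0.08 to 0.53) and Ppard at 78 weeks (0.01 to 0.60) lie clear of 0, before adjustment.

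Hearts of different ages differed in 5 of the 8 followed genes, but an age difference here is also a difference between batches of arrays. For this comparison all 30 arrays were put on 1 scale, the log2 of signal over the array's 75th percentile, and fitted together by limma with the slide as a random block. Of all probes, 57.3% were called between 8 and 21 weeks (42.2% higher and 15.1% lower in the older), 10.9% between 8 and 78 weeks (5.66% and 5.21%) and 33% between 21 and 78 weeks (13.6% and 19.4%). The groups did not overlap for 6.6%, 1.97% and 3.65% of probes, and the median of all probes differed by 0.29, 0.12 and -0.19. Among probes well above background on all 30 arrays the median differed by 0.16, -0.02 and -0.16. Of the 8 followed genes, 5 were called from 8 to 21 weeks, 1 from 8 to 78 weeks and 4 from 21 to 78 weeks, of which the first and second shares lie near those of all probes. In mixed tissue, fewer cells of a type and less RNA per cell cannot be told apart. Markers of other cell types and of heart muscle also differed between the ages under this scaling. Of 6 endothelial markers 5 were called lower at 21 than at 8 weeks. Their summed level, which covered only 5 of the 6, was 13.4 to 15.5 at 8 weeks and 6.43 to 13.1 at 21 weeks. After quantile normalization 4 of the 6 were called lower and with normexp none. Of 9 cardiomyocyte markers, with Pln read by its probe at background, 8 were higher and 1 lower. Their summed level was 2801 to 4466 at 8 weeks and 3921 to 10035 at 21 weeks. After quantile normalization none of the 9 was called higher and 1 was lower, 5 of the 9 differences being positive, and with normexp none was called. Their part in the results that follow was not tested.

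The coactivator Ppargc1a was highest in 8-week hearts. Its log2 level ran from 0.32 to 0.76 in females and 0.15 to 0.35 in males at 8 weeks. At 21 weeks it ran from -1.11 to 0.06 and -1.24 to 0.07, and at 78 weeks from -0.28 to 0.13 and -0.18 to 0.19. All 10 hearts of 21 weeks lay under the lowest heart of 8 weeks, and 9 of 10 hearts of 78 weeks did. Ppargc1a fell by 0.82 ± 0.13 (SE) from 8 to 21 weeks, or 1.77-fold (limma adjusted p = 2.44e-05), while the median probe was higher. The difference was -0.96 in females alone and -0.68 in males alone, each called by limma. From 8 to 78 weeks it fell by 0.43 ± 0.14 (adjusted p = 0.0386), a call that was lost without the 2 libraries that went against their labels (-0.43, adjusted p = 0.0710), without the slide block (-0.42, 0.0594), with normexp (-0.33, 0.0766), in females alone (-0.60, 0.129), in males alone (-0.25, 0.448) and in 14 of 30 fits with 1 array left out. On the slide that held both ages, the 78-week female was lower than the 8-week female by 0.33 and the male by 0.06. From 21 to 78 weeks it rose by 0.39 ± 0.13 (adjusted p = 0.0235, without both libraries 0.39 and 0.0399), but with normexp the value was 0.18 (adjusted p = 0.943), in females alone 0.36 (0.297) and in males alone 0.44 (0.0851). That call was also lost without any 1 of 3 arrays of 21 weeks, Female replicate 5 (0.31, adjusted p = 0.0523), Male replicate 2 (0.35, 0.0566) and Male replicate 5 (0.30, 0.0517).

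Ppargc1b was lowest at 21 weeks. Its log2 level was 1.89 to 2.43 at 8 weeks, 0.56 to 2.30 at 21 weeks and 2.16 to 2.59 at 78 weeks over both sexes. The 21-week hearts spread widely, and 7 of the 10 lay under the lowest 8-week heart, while the 78-week hearts stood close together near the level of 8 weeks. It fell by 0.52 ± 0.13 from 8 to 21 weeks (limma adjusted p = 0.00210) and rose by 0.69 ± 0.13 from 21 to 78 weeks (adjusted p = 0.00017, without both libraries 0.70 and 0.000452). With normexp both calls were lost (-0.62, adjusted p = 0.0975, and 0.41, adjusted p = 0.771). Within 1 sex, the first difference was -0.29 in females (adjusted p = 0.248) and -0.74 in males (0.00750), and the males included the weakest array, at 0.56. The 2 sexes' differences were 0.48 ± 0.29 apart (adjusted p = 0.370). The second Ppargc1b row, whose probe maps over a span of 79272 bases of rn3 and was above background on 14 arrays, differed by 0.26 and -0.54 in these contrasts and passed in neither.

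Esrra and Tfam, a receptor of respiratory chain genes and the mitochondrial transcription factor, were called in the directions opposite to the coactivators in both of the same contrasts. Esrra had log2 levels of 5.62 to 5.98 at 8 weeks, 5.80 to 6.60 at 21 weeks and 5.31 to 5.98 at 78 weeks. Tfam had 4.03 to 4.35, 4.18 to 5.07 and 3.80 to 4.25. In both genes the 2 highest hearts of all were the same 2 males of 21 weeks, replicates 2 and 5. Esrra rose by 0.28 ± 0.084 from 8 to 21 weeks (limma adjusted p = 0.00624). The median probe shifted by 0.29, or by 0.16 among probes well above background on all 30 arrays. The Esrra difference was 0.00 after quantile normalization and -0.23 with normexp. The call was also lost in females alone (0.12, adjusted p = 0.466, against 0.43 and 0.0136 in males alone) and on the scanner's median signal (0.14, 0.0771). Tfam rose by 0.36 ± 0.083 (adjusted p = 0.00109), against 0.16 after quantile normalization and -0.13 with normexp. From 21 to 78 weeks Esrra fell by 0.47 ± 0.084 (adjusted p = 5.78e-05) and Tfam by 0.45 ± 0.083 (8.52e-05), while the median probe fell by 0.19. Without both libraries those values were -0.46 and -0.45, and under quantile normalization -0.19 and -0.25, each past the threshold. With normexp they were -0.51 and -0.54 with an adjusted p of 1.00, and Esrra in females alone was -0.28 (adjusted p = 0.133). From 8 to 78 weeks neither gene passed (-0.19, adjusted p = 0.141, and -0.10, adjusted p = 0.434), though Esrra did under quantile normalization (adjusted p = 0.0358).

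Pparg, the fat cell receptor, rose by 0.81 ± 0.21 from 8 to 21 weeks, or 1.75-fold (limma adjusted p = 0.00223). Its log2 level was -2.32 to -0.58 at 8 weeks, -1.26 to -0.11 at 21 weeks and -1.78 to -0.08 at 78 weeks. All 10 hearts of 21 weeks were above the 8-week median, but only 2 were above the highest 8-week heart, a male at -0.58. The difference was 0.84 in females and 0.78 in males (adjusted p = 0.0553 in males alone), and 0.49 with normexp (0.0846). Over the same interval 4 of 10 adipocyte markers were called higher and none lower, near the 42.2% of all probes called higher. The markers' median difference was 0.46 against 0.29 for all probes, and their part in this result was not tested. From 8 to 78 weeks it was 0.42 ± 0.21 (adjusted p = 0.180, without both libraries 0.23 and 0.448). Between 21 and 78 weeks it was -0.39 ± 0.21 (adjusted p = 0.145), which became -0.57 (adjusted p = 0.0247) without both libraries and -0.54 (0.0258) without the library labelled Male replicate 3 alone.

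Ppara and Ppard passed in no age contrast, with differences between -0.08 and 0.18. The SE of each was 0.13 to 0.14. Rxra stood at -0.33 ± 0.14 from 8 to 21 weeks (adjusted p = 0.0520), and at 0.18 with normexp. It passed in 7 of 30 fits with 1 array left out, lowest without Male replicate 3 of 21 weeks (-0.43, adjusted p = 0.00599), an array without which it also passed from 21 to 78 weeks (0.35, adjusted p = 0.0346, against 0.24 and 0.177 with it). Esrrg passed at -0.77 and -0.89 in 21-week and 78-week against 8-week hearts, but it was well above background on 7 of 10 arrays at 8 weeks, 1 of 10 at 21 weeks and none of 10 at 78 weeks. Against the lowest signal that counts as above background, no fold can be given for both sexes together. Esrrb passed at 0.89 and Tfam's second row, on the other strand, at 0.84 from 8 to 21 weeks. Both were also near background, so neither is counted above.

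**Figure D3:**
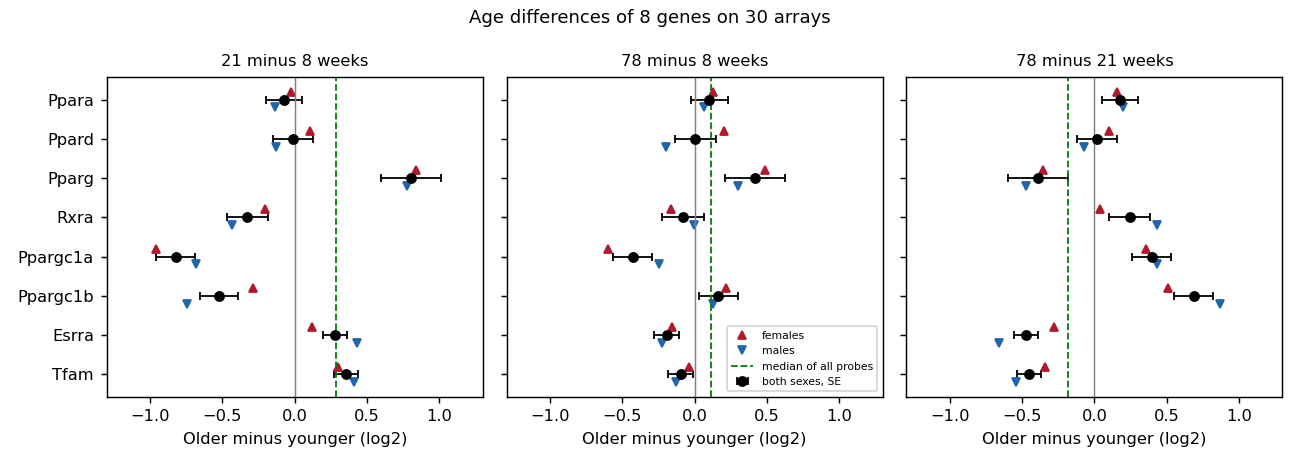
Age differences of the 8 followed genes on the log2 scale, older minus younger, for 21 minus 8, 78 minus 8 and 78 minus 21 weeks. Black points with bars are both sexes together with their SE, red and blue triangles are females and males alone, and the dashed green line is the median of all probes. Ppargc1a (-0.82) and Ppargc1b (-0.52) lie left of the line in the first panel and right of it (0.39 and 0.69) in the third, with Esrra and Tfam on or near the line and then left of it.

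The targets of these regulators were read as lists of known genes. None of the 33 genes of fatty acid use, 29 measured genes of oxidative metabolism, 17 or 18 genes of mitochondrial DNA expression or 34 partner and coregulator genes passed the sex test at any age. At 8 weeks 31 of 33 fatty acid genes had a higher mean in females, with a median difference of 0.13 against -0.00 for all rows, and 29 of 32 did under each of the other 3 scalings. Leading that list was Pdk4, a kinase that inactivates pyruvate dehydrogenase (0.53 ± 0.12, limma adjusted p = 0.301). Klf15, a regulator of cardiac lipid use, led the partners with 0.35 ± 0.12 (adjusted 0.745), ahead of the orphan receptor Nr4a1 at 0.19 (0.870). Gabpa, a subunit of NRF-2, led the mitochondrial DNA list with 0.19 (0.845), before Lrpprc, which keeps mitochondrial messengers stable, with -0.08 (0.935). In the oxidative list Uqcrfs1 of complex III stood at 0.09 and Idh3a of the citric acid cycle at -0.13 (both 0.941).

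At 21 weeks 28 of 29 oxidative genes had a lower mean in females, with a median of -0.28 against -0.14 for all rows, but 29 of 29 had a higher one with normexp and 15 of 29 after quantile normalization. Uqcrc1 of complex III differed by -0.34 (limma adjusted p = 0.290) and Mdh2 of the citric acid cycle by -0.29 (0.305). Acaa2, the last enzyme of the fat oxidation spiral, stood at -0.44 (0.271) and Pdk4 at 0.82 (0.277). Pprc1, the third coactivator of the PGC-1 family, was 0.52 ± 0.11 higher in females (1.43-fold, adjusted p = 0.237) and Nr4a1 0.59 ± 0.15 (0.258). Peo1, the mitochondrial DNA helicase, stood at 0.43 (0.278) and Lonp1, a matrix protease, at 0.32 (0.294). At 78 weeks 28 of 29 oxidative genes had a higher mean in females (median 0.15), 29 of 29 without the 2 libraries that went against their labels, and 2 of 29 with normexp. Uqcrc2 stood at 0.23, Sdhd at 0.20, the lipase Lpl at 0.26 and Cpt1a, which admits fatty acids to mitochondria, at 0.34, each with a limma adjusted p of 0.856. The coactivator Ncoa3 stood at -0.28, with the same adjusted p, and Gabpa at 0.18 and Polrmt, the mitochondrial RNA polymerase, at 0.16 (both 0.857 or 0.858).

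Most oxidative genes were called between 8 and 21 weeks and between 21 and 78 weeks, in the same direction as Esrra and Tfam. Of all probes 42.2% were called higher and 15.1% lower from 8 to 21 weeks. From 21 to 78 weeks the shares were 13.6% and 19.4%, and from 8 to 78 weeks 5.66% and 5.21%. Of the 29 oxidative genes 26 were called higher and none lower from 8 to 21 weeks. Their median was 0.43, against 0.29 for all probes and 0.16 for probes well above background on all 30 arrays. After quantile normalization 6 were higher and 2 lower, and with normexp none was called. Cox6a2, the muscle subunit of cytochrome oxidase, rose by 0.70 ± 0.09, Ndufs7 by 0.51, Mdh2 by 0.60 and the mitochondrial creatine kinase Ckmt2 by 0.46. From 21 to 78 weeks 20 of 29 were called lower and none higher (18 without both libraries, 11 after quantile normalization and none with normexp), again with Cox6a2 (-0.79), Mdh2 (-0.86), Ndufs7 (-0.67) and Ckmt2 (-0.62) in front. Of fatty acid genes, 22 of 33 were called higher and 1 lower from 8 to 21 weeks, 12 and 4 after quantile normalization and none with normexp. Acaa2 rose by 0.87 ± 0.09, Eci1 by 0.81, the carnitine carrier Slc25a20 by 0.57 and Acadm by 0.48. From 21 to 78 weeks 18 were called lower and 3 higher (8 and 5 after quantile normalization, none with normexp), led by Eci1 (-0.83), the fatty acid binder Fabp3 (-0.67), Acads (-0.65) and Hadhb (-0.63). From 8 to 78 weeks only 6 of 33 fatty acid genes were called, all higher: among them Angptl4, an inhibitor of lipoprotein lipase, rose by 2.23 ± 0.30, Pdk4 by 0.85 and Acaa2 by 0.49. Without both libraries 8 were called, and with normexp 1. Over the same interval 3 of 29 oxidative genes were called, near the 10.9% of all probes, with Cs at -0.32, Ndufs1 at -0.49 and Atp5b at 0.70.

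Of the genes of mitochondrial DNA expression 8 of 18 were called higher and 1 lower from 8 to 21 weeks and 10 lower and 1 higher from 21 to 78 weeks. Of all probes 42.2% and 15.1% were called higher and lower in the first interval, and 13.6% and 19.4% in the second. The list's median was 0.19 in the first, against 0.29 for all probes and 0.16 for probes well above background on all 30 arrays. After quantile normalization 5 were higher and 2 lower, then 1 higher and 7 lower, and with normexp none was called. Tfb2m, which opens mitochondrial promoters with TFAM, rose by 0.50 ± 0.06 and then fell by 0.46 ± 0.06. Mterfd2 rose by 0.52 and fell by 0.37, while the Polg2 gene, a subunit of the mitochondrial DNA polymerase, rose by 0.39 and Mterf by 0.29. Mterfd1 and Tfb1m fell by 0.42 and 0.36 from 21 to 78 weeks. Lrpprc was the only gene of this list called from 8 to 78 weeks, at -0.30 (adjusted p = 0.0339), and no gene was called without both libraries. Partners and coregulators divided, with 8 of 35 higher and 14 lower from 8 to 21 weeks and 12 higher and 11 lower from 21 to 78 weeks, beside the same shares of all probes. With normexp none was higher and 2 were lower in the first interval, and none was called in the second. The deacetylase Sirt3 rose by 0.54 and the liver X receptor Nr1h2 by 0.53, while the acetyltransferase Ep300 fell by 0.56 and the glucocorticoid receptor Nr3c1 by 0.52. Over the later interval, 21 to 78 weeks, Rxrg, a relative of Rxra, fell by 0.60 and Creb1, which binds the cyclic AMP element, by 0.36, while Nr3c1 rose by 0.45. From 8 to 78 weeks 7 of 35 passed, beside 10.9% of all probes. In front were the thyroid hormone receptor Thra (-0.37), Lpin1 (-0.45), a coactivator of PPAR alpha, Rxrg (-0.30) and Nr1h3 (0.42).

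Within the labelled groups of 5, the members fell into a few patterns. For this each array's deviation from the mean of its own group of 5 was used, over 30 arrays, with 15 pairs of 6 genes compared and p from permutations within groups, adjusted over the 15 pairs. Esrra and Tfam deviated together (r = 0.86, rho = 0.75, permutation p 7e-05 and 0.00042, adjusted 0.00105 and 0.0063), and r was 0.76 without the 2 arrays farthest out and 0.61 without the 21-week arrays. Ppargc1a and Ppargc1b did too (r = 0.79, rho = 0.70, permutation p 0.00083 and 0.0009, adjusted 0.0048 and 0.00675), with r of 0.78 and 0.43 in those subsets. Ppargc1a ran against Esrra (r = -0.72, rho = -0.57, permutation p 0.00096 and 0.0106, adjusted 0.0048 and 0.0527) and Tfam (r = -0.71, rho = -0.48, permutation p 0.00356 and 0.0372, adjusted 0.0134 and 0.139). Without the 21-week arrays these became -0.29 and 0.03, so that relation rests on the 21-week arrays. All arrays share their scaling, and the deviations of the array's own 75th percentile correlated at -0.56 with those of Tfam, -0.49 with Esrra and 0.25 with Ppargc1a.

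The probes most like each gene in these deviations were found among 14423 probes well above background on all 30 arrays, as a description. Likest to Ppargc1a were an unnamed probe (r = 0.93), Nedd4 (0.92) and Aff4_predicted (0.92), and to Ppargc1b Chd7_predicted (0.94), Crim1 (0.93) and RGD1564964_predicted (0.92). Likest to Esrra were Mlf2 (0.95), Ndufb7 (0.92) and RGD1305158 (0.91). Tfam had an unnamed probe (0.97), Mrpl13 (0.96) and Mrps18c (0.96), the last 2 being mitochondrial ribosomal proteins. Pparg had Dgat2 (0.93), Phgdh (0.92) and Agpat2 (0.91), of which Dgat2 and Agpat2 make triglyceride. Ppard had no close match, with Rasl12 (0.75), Zcchc14_predicted (0.71) and LOC679547 (0.70).

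Pparg moved with the summed level of fat cell markers from heart to heart. The summed level of 10 adipocyte markers, in multiples of the array's 75th percentile, ran from 79.5 to 222 at 8 weeks, 85.2 to 369 at 21 weeks and 83.6 to 415 at 78 weeks. In deviations from group means Pparg followed this sum with r = 0.89 and rho = 0.90 over 30 arrays (permutation p = 1e-05 for both, the smallest the permutations can give, adjusted 8e-05 over 8 genes compared). The coefficient was 0.85 without the 2 arrays farthest out, 0.87 without the 2 libraries that went against their labels, and 0.90, 0.98 and 0.87 within 8, 21 and 78 weeks (10 arrays each). For the other 7 genes r lay between -0.30 and 0.12, with adjusted permutation p of 0.648 or more. The hearts highest in Pparg at each age were Male replicate 3 at 8 weeks, Female replicate 5 at 21 weeks and the library labelled Male replicate 3 at 78 weeks. Among the markers, adiponectin (Adipoq) ran from -0.97 to 4.89 and the brown fat gene Ucp1 from -2.75 to 6.89 on the log2 scale, while leptin (Lep) was well above background on no array. Not every marker moved with Pparg, since Cidec gave r = -0.07 (0.60, -0.40 and -0.08 within the 3 ages) and Lep 0.09, against 0.68 to 0.90 for the other 8.

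**Figure D4:**
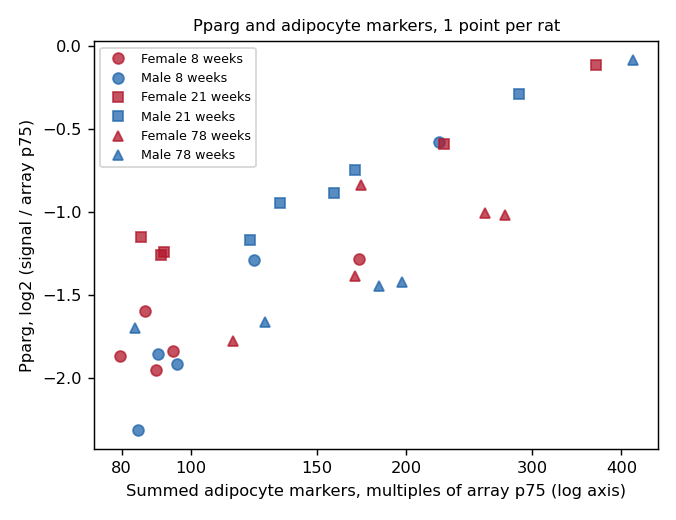
Log2 level of Pparg against the summed level of 10 adipocyte markers (multiples of the array's 75th percentile, log axis), 1 point per rat, colour by sex and shape by age. Pparg rises with the sum within each age, up to -0.08 in the 78-week rat with the highest sum (415).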

How the data were processed

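Agilent 1-colour arrays of 30 whole rat hearts were analysed. The authors scanned them with Agilent Feature Extraction and deposited, per array, spot intensity and flags, and, per age, a table of signal divided by the array's 75th percentile, with rows not expressed left out per their methods. Here table values were taken as log2 and tested by limma 3.58.1 in R 4.3.3, female minus male within each age, over 27408, 27383 and 26553 rows. For age, log2 of processed signal over the array's 75th percentile was fitted on all 30 arrays with slide as a random block (consensus correlation -0.0417), leaving out outlier-flagged spots. Adjusted p under 0.05 was a call. Of table rows, 98.53%, 98.54% and 98.48% were matched to probes within 0.002 log2. Columns of 21-week males name their group and not the rat.

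Of several rows of a gene, the one above background on most arrays led. From each list up to 4 called genes of smallest adjusted p were named, or, where none passed, the 2 of smallest p, and a few of these genes are not reported here. The 10 genes and the lists were chosen with earlier results of these data known. The number of arrays, 5 per group, limits the precision. Exact permutation tests were two-sided and over the rats of both sexes at 1 age. For the 6 genes above background everywhere, the 3 probes with the highest Pearson r of deviations from group means were named. The tests were tried on simulated data. Alternatives covered scaling, background (normexp with an offset of 50 units), filters, slide and single arrays, and list alternatives were added after seeing the data.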

Additional observations from a re-analysis of the deposited data

Results flagged for a closer look

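In 4 of 48 groups of 5 arrays (8 genes by 6 groups) 1 array stood outside its group by Dixon's test, where chance flags about 1 in 20, or 2.4 of 48. The log2 levels are of signal over the array's 75th percentile. Esrra stood at 5.98 in Female 8 weeks replicate 2, against a group median of 5.80. Ppara stood at -0.62 in Female 78 weeks replicate 4, against a median of -1.88, and without it the 78-week sex difference of Ppara was -0.15 instead of 0.10. Ppard stood at -1.69 and Pparg at -0.083 in the library labelled Male 78 weeks replicate 3, against medians of -2.10 and -1.45. That library is 1 of the 2 whose Y-linked genes went against the label, and it had the highest summed level of adipocyte markers of all 30, 415.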

How the results depend on the processing

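No sex call of the 10 genes appeared under any alternative, and over single genes 422 sex values, 827 age values and 47 interaction values kept their direction and side of the threshold, while 42, 44 and 1 changed sign, 35 age values lost and 12 gained a call, and 2 within the slide of both ages moved. The causes were not tested. Sex-called rows at 8 weeks (28) became 16 with normexp, 14 with slide as a block, 5 with a replicate block, 11 with 1 fit of all arrays and 12 to 31 with 1 array left out. Those at 21 weeks (14) became 22 with median signal, 1 with normexp, 30 over rows above background on at least 5 of 10 arrays, 9 with slide as a block, 5 with a replicate block, 1754 with 1 fit of all arrays and 8 to 20 with 1 array left out. Those at 78 weeks (0, with 1501 at an unadjusted limma p under 0.05) became 1 after quantile normalization, 9 without the 2 libraries that went against their labels, 1 with 1 fit of all arrays and 0 to 1 with 1 array left out. Replicate numbers were not taken as pairs, since the labels do not say that rats of 1 number belong together. Deviations of same-numbered rats correlated at -0.08 to 0.14 at 8 weeks, -0.13 to 0.31 at 21 weeks and 0.06 to 0.22 at 78 weeks. The means over other numbers were -0.03 to 0.01, -0.07 to 0.03 and -0.07 to -0.02. Same-numbered rats also shared a slide, and whether they form pairs was not tested. The replicate block gave the 10 genes no call.

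Age calls for 21 against 8 weeks (23488) became 908 with normexp and 12548 after quantile normalization. Over probes above background on at least 15 of 30 arrays they were 12203. They were 3420 in females, 21765 in males and 20907 to 25111 with 1 array left out. Those for 78 against 8 weeks (4457) became 7241 with median signal, 363 with normexp, 783 in females, 1436 in males and 3537 to 5511 with 1 array left out. Those for 78 against 21 weeks (13547) became 312 with normexp, 3935 in females, 12406 in males and 12298 to 17947 with 1 array left out. Interaction calls, 1 each for 21 against 8 and 78 against 21 weeks, became 2 and 0 without both libraries.

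Sex differences turned at 8 weeks for Ppard with median signal (0.026) and Ppargc1b with normexp (-0.00063). At 21 weeks median signal turned Ppara (-0.14), Ppard (-0.21), Ppargc1a (-0.0052), Rxra (-0.18) and Tfam (0.023), and normexp turned Esrra (0.20), Ppara (-0.35), Ppard (-0.35), Ppargc1a (-0.16), Rxra (-0.37) and Tfam (0.44). At 78 weeks normexp turned Esrra (-0.18), Ppargc1a (0.011), Ppargc1b (-0.10), Rxra (0.15) and Tfam (-0.24). From 8 to 21 weeks median signal turned Ppara (0.15) and Ppard (0.11), normexp turned Ppara (0.24), Ppard (0.22), Esrra (-0.23), Tfam (-0.13) and Rxra (0.18), quantile normalization turned Ppara (0.014), Ppard (0.066) and Esrra (-1.76e-05), and females alone turned Ppard (0.10). From 8 to 78 weeks normexp turned Ppargc1b (-0.22) and Rxra (0.22), and Ppard turned without the slide block (-0.012), after quantile normalization (-0.079), with the filter (-0.026), in males (-0.20) and without both libraries (-0.012). From 21 to 78 weeks median signal turned Ppara (-0.011), Ppard (-0.010) and Rxra (-0.0045), and Ppard turned after quantile normalization (-0.15), in males (-0.073) and without both libraries (-0.0068). The Ppara interaction for 78 against 21 weeks became 0.040 without both libraries.

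With 1 array left out, sex differences that crossed 0 were those at 8 weeks of Ppara (-0.036 to 0.060), Ppard (-0.25 to 0.0061), Pparg (-0.29 to 0.15), Ppargc1b (-0.029 to 0.11) and Tfam (-0.0019 to 0.077), at 21 weeks of Ppard (-0.018 to 0.31), Pparg (-0.24 to 0.087), Ppargc1a (-0.14 to 0.25) and Tfam (-0.20 to 0.0042), and at 78 weeks of Ppara (-0.15 to 0.19), Pparg (-0.061 to 0.35) and Rxra (-0.20 to 0.034). Age differences that crossed 0 were those of Ppard (-0.10 to 0.059 for 21 against 8 weeks, -0.077 to 0.053 for 78 against 8 and -0.054 to 0.10 for 78 against 21) and of Ppara for 78 against 8 weeks (-0.031 to 0.15).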
